A study of Mus musculus with 24 samples.

Results

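The expression of 10 genes of fat-tissue macrophages was followed, 8 that mark lipid-associated macrophages (Trem2, Lgals3, Cd68, Spp1, Gpnmb, Mmp12, Itgax and Cd9) and 2 chemokines that draw monocytes (Ccl2 and Ccl7). They were taken by symbol from 5 tables of comparisons deposited by the authors, which together list 13162 genes. The tissue was interscapular brown fat, the heat-producing pad between the shoulder blades, of male mice on a C57BL/6 background aged 10 to 12 weeks and collected at ZT10. In Control mice HDAC3 was floxed and no Cre is named. Knockout (KO) mice had Ucp1-cre on the same floxed background, a recombinase under a promoter that is active in brown adipocytes. Each genotype was kept at 22 °C, or was held at 15 °C for 24 h and then housed at 22 °C for 24 h or for 7 days, so that 6 groups held 4 libraries each, 24 together. The labels state biological replicates without saying that each library is 1 mouse, so p-values measure the spread between these libraries. The design asks whether a short cold exposure leaves a lasting trace in brown fat with and without HDAC3.

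Lipid-associated macrophages gather around dying or lipid-laden adipocytes, take up lipid and debris, and digest them in lysosomes. TREM2, a surface receptor for lipids and lipoproteins that signals through the adaptor TYROBP, drives much of this programme in mouse fat. CCL2 and CCL7 bind the receptor CCR2 and bring monocytes from the blood into tissue, where some become macrophages.

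The authors' means per group are in RPKM, a read count divided by the gene's length and by the library's total. They are printed with enough digits that the whole reads of the 4 libraries behind a mean could be recovered, and each mean kept here had exactly 1 solution. This held for 72687 of 76711 group means (94.8%) and for all 51 group means listed for the 10 genes, or 204 library values. The recovered library totals ran from 4637903 to 12538811 reads. The 4 libraries of a group are called a to d from the deepest to the shallowest, since they cannot be tied to the labels' replicate numbers. A gene is listed in a table where its mean reaches 0.5 RPKM in the higher of the groups compared, so Spp1 was not listed for KO at 22 °C, and Spp1, Mmp12, Ccl2 and Ccl7 were not listed at 7 d in either genotype. Hdac3 itself was at 23.4 to 28.7 RPKM in the 12 Control libraries and at 5.82 to 9.0 RPKM in the 12 KO libraries, with no overlap.

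Control libraries a and b at 24 h of recovery stood apart from c and d before any comparison. Library a had the highest RPKM of its group for all 10 genes, and both a and b lay above c and d for all 10. Over all 12072 genes with recovered reads in this group, library a was highest for 29.9%, and a and b both lay above c and d for 20.2%. KO libraries a and b at 24 h lay above c and d for 7 of the 10 genes, against 19.45% of all genes. Library c was lowest for 9 of the 10 genes in both 24 h groups. Whether depth has a part in this was not tested. Results that rest on Control libraries a and b at 24 h are given below with and without them, a choice made after their values were seen. A test here means the authors' edgeR test with its adjusted p under 0.05, and limma refers to a second test run on the recovered reads.

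Trem2, Gpnmb and Cd68 were called higher in Control after cold by the authors' test, Trem2 being listed only through the 24 h group. Promoters of these 3 genes are shown because they carry TGANTCA. These are loosened letters, with any base in the middle, of an AP-1 site, a motif bound by the JUN and FOS families of stress-induced factors. RefSeq promoters of mouse build GRCm38.p6, from 250 bases before to 50 after the start, were held for 8 of the 10 genes. Capitals mark TGANTCA, searched on both strands. The match was TGAATCA in Trem2, TGACTCA in Gpnmb and TGAGTCA in Cd68. The windows are chr17:48346151-48346450 on the plus strand for Trem2, chr6:49036268-49036567 on the plus strand for Gpnmb, and chr11:69666121-69666420 on the minus strand for Cd68.
Trem2: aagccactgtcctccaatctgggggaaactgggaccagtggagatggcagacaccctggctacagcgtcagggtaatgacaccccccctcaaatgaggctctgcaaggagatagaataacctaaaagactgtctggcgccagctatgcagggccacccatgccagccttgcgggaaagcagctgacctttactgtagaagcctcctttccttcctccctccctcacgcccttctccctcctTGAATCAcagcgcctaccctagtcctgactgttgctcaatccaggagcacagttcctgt
Gpnmb: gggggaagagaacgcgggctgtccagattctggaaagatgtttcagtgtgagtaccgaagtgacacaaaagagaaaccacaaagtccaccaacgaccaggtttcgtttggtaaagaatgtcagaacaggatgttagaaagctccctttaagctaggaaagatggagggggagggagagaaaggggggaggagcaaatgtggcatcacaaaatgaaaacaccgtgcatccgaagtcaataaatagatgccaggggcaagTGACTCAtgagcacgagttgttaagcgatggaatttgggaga
Cd68: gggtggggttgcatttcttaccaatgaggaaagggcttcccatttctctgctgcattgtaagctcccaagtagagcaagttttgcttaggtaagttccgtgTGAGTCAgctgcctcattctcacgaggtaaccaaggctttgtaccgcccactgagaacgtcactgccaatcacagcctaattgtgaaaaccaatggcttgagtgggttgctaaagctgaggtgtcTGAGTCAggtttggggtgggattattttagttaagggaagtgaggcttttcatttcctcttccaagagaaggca
TGANTCA was found in 5 of the 8 genes with a promoter (Trem2, Gpnmb, Cd68, Mmp12 and Itgax) and in 7.81% of all 32851 promoters. It was 1 of 13 motifs searched and is shown because of these matches, so the count is a description only. Loose C/EBP letters (TTNNNCAA) were in 6 of the 8 genes and 36.7% of promoters, and the short PU.1 letters (GAGGAA) in 4 and 28.3%. The longer PU.1 letters (GAGGAAGT, which contain the ETS letters AGGAAGT) were in Mmp12 and Spp1 and in 3.20% of promoters, and the ETS letters were in the same 2 genes and 9.35%. A loose NF-kB motif, given by name alone, was in 3 genes and 50.8%, CATGTG in 2 and 14.2%, and a TATA box (TATAAA) in 2 and 13.6%. None of the 8 held CACGTG (7.15% of promoters), TCACGTGA, which contains it (0.974%), the strict NF-kB motif (0.411%), TTGCGCAA (0.183%) or TGACGTCA (1.79%).

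In Control mice, 24 h after the return from 15 °C, most of the set was called higher than at 22 °C, with large differences between the 4 libraries. By the authors' deposited table, 9 of the 10 genes rose and none fell, where 21.8% of the 12830 listed genes passed the test and 13.1% rose. Their median log2 fold change was 3.15, against 0.01 over all listed genes. Only Cd9 missed the threshold. Trem2, Spp1, Mmp12 and Itgax were below 0.5 RPKM at 22 °C and were listed only through the 24 h group where they were high, so their calls and the median do not support a rise of the set. Of the 6 genes listed through both groups, 5 rose (Lgals3, Cd68, Gpnmb, Ccl2 and Ccl7). In RPKM of the libraries, however, just 3 of the 10 (Lgals3, Spp1 and Itgax) had all Control libraries at 24 h above all Control libraries at 22 °C, where 20.7% of genes had no overlap and 8.83% lay higher without it. Whether more macrophages or more RNA per macrophage lies behind a level cannot be told apart in bulk tissue.

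**Figure D1:**
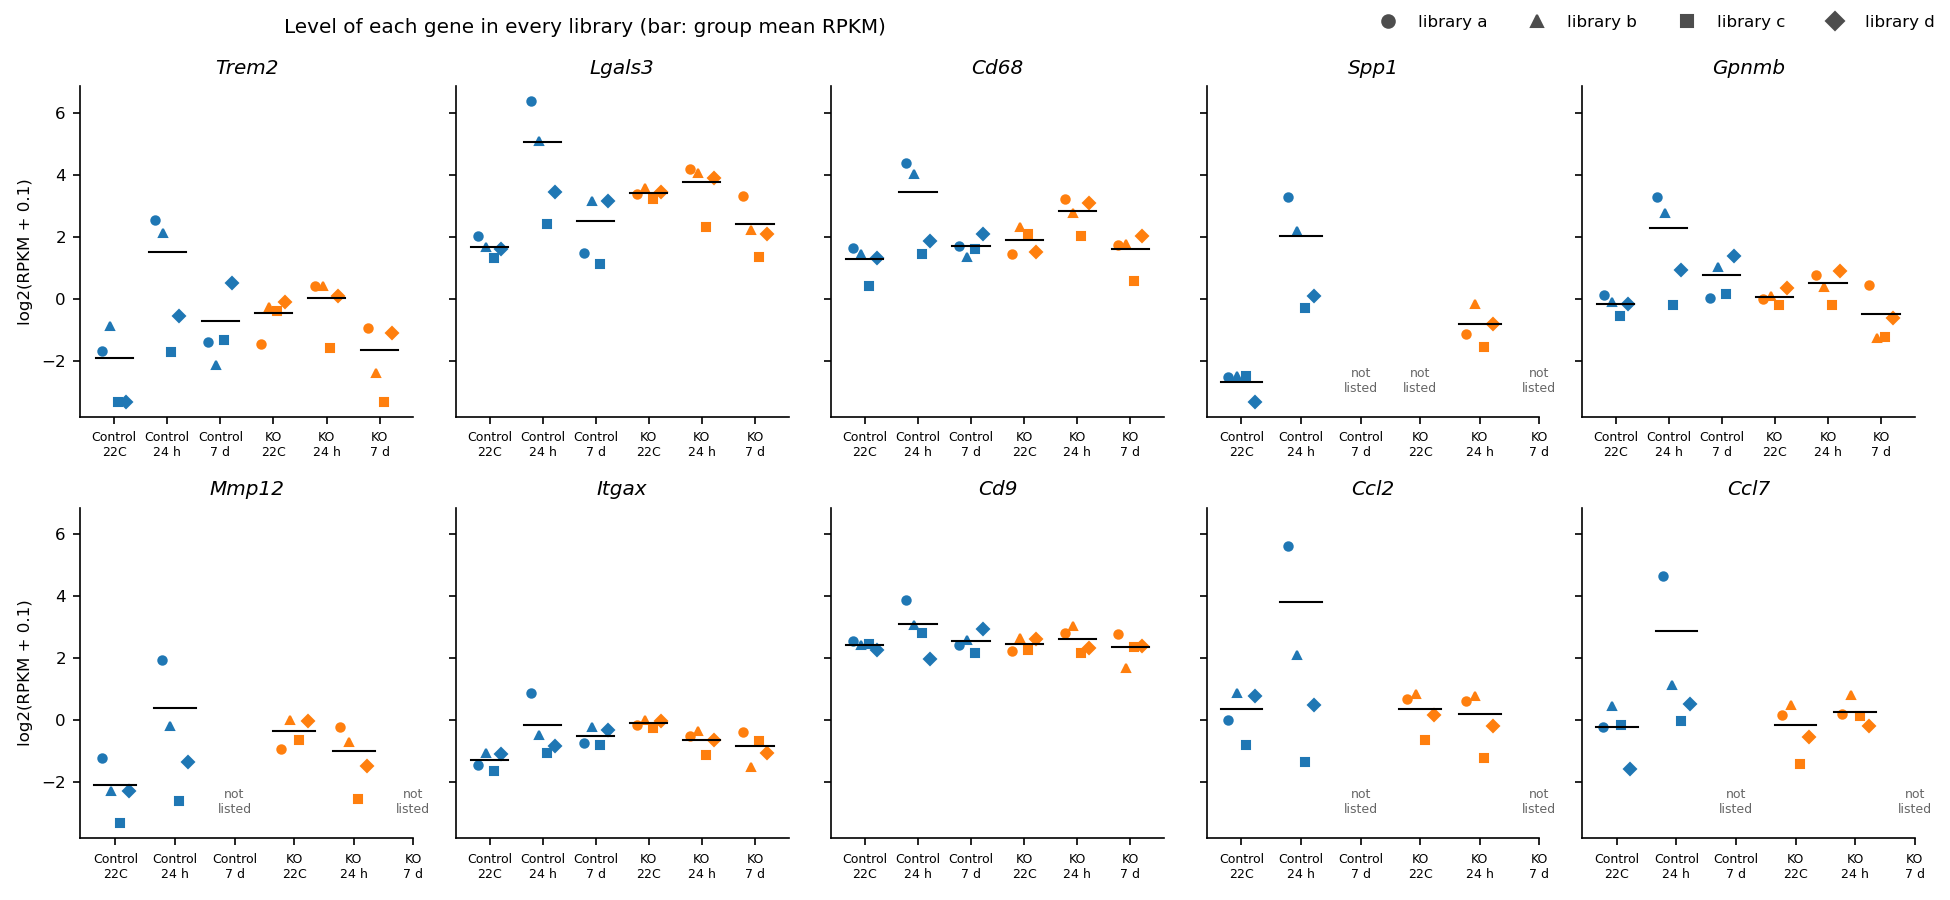
Level of each of the 10 genes as log2(RPKM + 0.1) in the 4 libraries (a to d, by marker) of each group, Control in blue and KO in orange, with a bar at the deposited group mean. In Control at 24 h, libraries a and b sit above c and d for all 10 genes, and for Ccl2 library a is at 49.6 RPKM while the other libraries are at 4.17 or less.

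Trem2 was at 0.211, 0.443, 0 and 0 RPKM in Control libraries a to d at 22 °C and at 5.78, 4.30, 0.205 and 0.581 RPKM at 24 h. Libraries a and b were high, and library c lay within the range at 22 °C. The authors' deposited table gives a 15.0-fold rise (log2 fold change 3.90, adjusted p = 0.000474), on 6 reads in all at 22 °C.

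Lgals3 encodes galectin-3, a sugar-binding protein that macrophages release in quantity and that is recruited to damaged lysosomes. Its 4 Control libraries were at 3.95, 3.07, 2.38 and 2.92 RPKM at 22 °C and at 83.1, 34.0, 5.26 and 10.7 RPKM at 24 h, the highest mean of the 10 genes. Each 24 h library exceeded each 22 °C library. The rise was 10.8-fold in the authors' deposited table (log2 fold change 3.43, adjusted p = 2.29e-07).

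Cd68, a heavily glycosylated protein of macrophage lysosomes and endosomes, was at 3.0, 2.64, 1.24 and 2.40 RPKM at 22 °C and at 20.9, 16.3, 2.64 and 3.52 RPKM at 24 h in Control. Only library c at 24 h fell within the earlier range. The authors' deposited table gives a 4.76-fold rise (adjusted p = 3.37e-05).

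Spp1 encodes osteopontin, a secreted protein that binds CD44 and integrins. It had 3 reads over the 4 Control libraries at 22 °C (0.0728, 0.0765, 0.0777 and 0 RPKM) and 245 at 24 h (9.66, 4.46, 0.709 and 0.963 RPKM). All 24 h libraries were higher, c and d included. Per total reads the ratio was 68.8, with an exact 95% interval of 23.3 to 336 that covers counting error only. The authors' deposited table calls the rise at an adjusted p of 2.55e-08.

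Gpnmb, a membrane glycoprotein of lysosome-rich macrophages, was at 0.985, 0.835, 0.577 and 0.787 RPKM at 22 °C and at 9.64, 6.75, 0.773 and 1.79 RPKM at 24 h. Library c again lay within the 22 °C range. In the authors' deposited table it rose 6.03-fold (adjusted p = 2.41e-05).

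Mmp12, a macrophage elastase, was at 0.335, 0.105, 0 and 0.104 RPKM at 22 °C and at 3.76, 0.776, 0.0651 and 0.295 RPKM at 24 h. Both c and d overlapped the 22 °C libraries. Its 8.74-fold rise passed the authors' test at an adjusted p of 0.0164, the weakest of the 9 calls in the authors' deposited table.

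Itgax, which encodes the integrin CD11c of dendritic cells and of fat macrophages in obesity, changed least among the genes called. It was at 0.270, 0.378, 0.224 and 0.372 RPKM at 22 °C and at 1.72, 0.612, 0.379 and 0.463 RPKM at 24 h. The groups did not overlap, though library c cleared the highest 22 °C library only narrowly. The authors' deposited table gives a 2.65-fold rise (adjusted p = 0.00752).

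Cd9, a tetraspanin of many cell types that lipid-associated macrophages also carry, was at 5.77, 5.32, 5.40 and 4.70 RPKM at 22 °C and at 14.7, 8.27, 7.00 and 3.80 RPKM at 24 h. Library d at 24 h was below every 22 °C library. The deposited difference was 1.64-fold (adjusted p = 0.0596) in the authors' deposited table and was not called. The RefSeq genes Gm28809 and Gm26728 overlap Cd9, and the sources used here do not state whether reads were assigned by strand, so some of its reads may be theirs.

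Ccl2 and Ccl7, which lie next to each other on the same chromosome, depended most on a single library. Ccl2 was at 0.898, 1.73, 0.480 and 1.62 RPKM at 22 °C and at 49.6, 4.17, 0.292 and 1.32 RPKM at 24 h in Control. Ccl7 was at 0.755, 1.27, 0.806 and 0.234 RPKM and then at 25.0, 2.10, 0.882 and 1.33 RPKM. Library a held most of both means, while for Ccl2 library c lay below and library d within the range of the 22 °C libraries. The authors' deposited table gives an 11.3-fold rise of Ccl2 (adjusted p = 0.00262) and an 8.95-fold rise of Ccl7 (adjusted p = 0.00165).

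With limma on the recovered reads, which tested 12042 genes and called 23.8% of them, 6 of the 10 genes rose: Trem2, Lgals3, Cd68, Spp1, Gpnmb and Itgax. Mmp12 (adjusted p = 0.0771), Ccl2 (0.227), Ccl7 (0.0629) and Cd9 (0.128) did not pass. Trem2, Spp1 and Itgax were listed only through the 24 h group, so their limma calls do not support a rise of the set either. Without library a, 4 genes passed (Lgals3, Cd68, Spp1 and Gpnmb). Without a and b, 1 passed: Spp1, at a log2 fold change of 2.31 ± 0.37 (SE, limma adjusted p = 0.00178). None of the genes listed through both groups passed without a and b. Lgals3 was then at 1.40 ± 0.55 (adjusted p = 0.0922) and Trem2 at 0.84 ± 0.61 (adjusted p = 0.395). The difference of Ccl2 turned to -0.38 ± 0.53 (adjusted p = 0.702). Libraries a and b were the highest for all 10 genes, so lower values without them are set by that choice. The lost calls show only that they rest on these libraries. Without library c, which was lowest for 9 of the 10 genes, 9 passed.

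**Figure D2:**
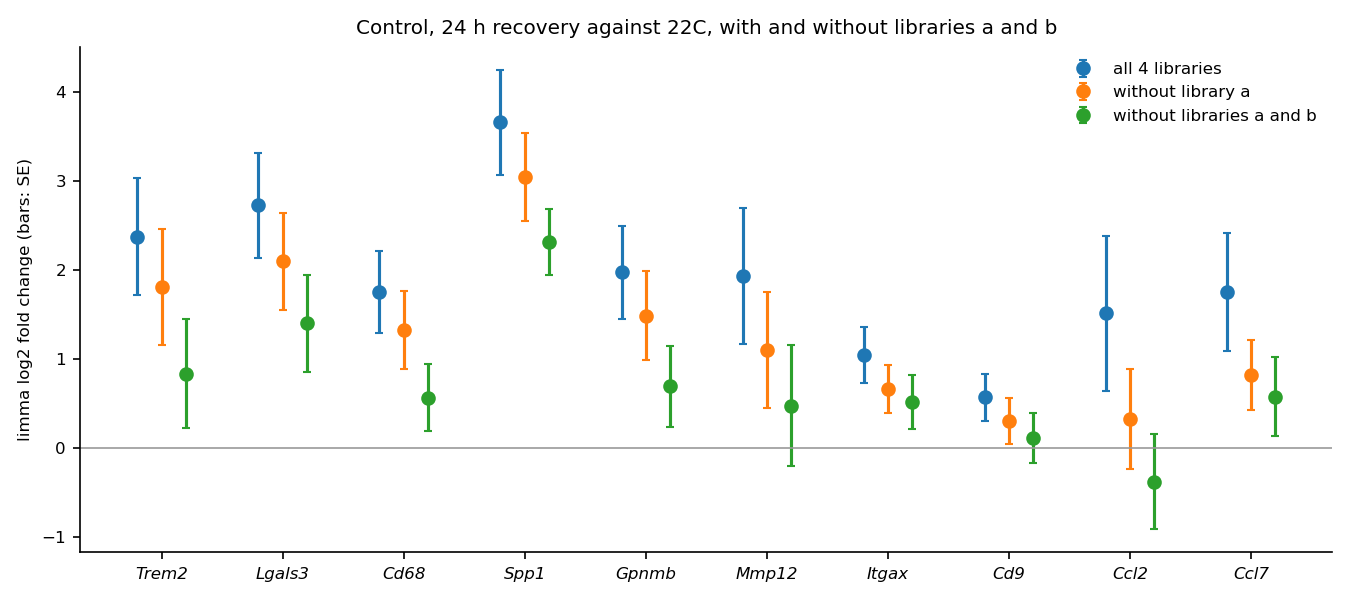
Limma log2 fold change of the 10 genes in Control, 24 h of recovery against 22 °C, with bars of 1 SE, from all 4 libraries of the 24 h group (blue), without library a (orange) and without libraries a and b (green). The values shrink for all 10 genes as the libraries are left out, Spp1 stays at 2.31 and Ccl2 falls to -0.38. Libraries a and b were the highest for all 10 genes, so the shrinkage is set by that choice.

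Some genes of the same pathway and of macrophages at large differed along with the set in Control at 24 h. Of 13 listed genes that are TREM2 signalling partners or regulators of myeloid cells at large, 6 rose and 1 fell by the authors' deposited table. The one with the smallest p was the gene that fell, Cebpa, from 161 to 89.5 RPKM (1.71-fold, adjusted p = 6.53e-05, authors' deposited table). Tyrobp, the adaptor of TREM2, was at 6.60 to 15.1 RPKM at 22 °C and at 38.6, 32.1, 12.0 and 5.88 RPKM at 24 h, a 2.14-fold rise (adjusted p = 0.0223, authors' deposited table). Spi1, which encodes the myeloid factor PU.1, rose 3.18-fold, and Csf1r, the receptor for the macrophage growth factor CSF1, rose 1.73-fold in the same table. Syk, the kinase downstream of TYROBP, rose 1.90-fold in the authors' deposited table. Tyrobp, Spi1, Csf1r and Syk were each highest in library a and next highest in b, with c and d lower. Of 13 genes of this list with recovered reads, 7 had both a and b above c and d, where 20.2% of all genes did.

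Among receptors for the secreted members, Cd44, which binds osteopontin, rose 2.17-fold in Control (adjusted p = 0.0306, authors' deposited table), with library a at 5.13 RPKM and c and d at 0.873 and 0.777 RPKM. Itgb2, the integrin partner of CD11c, rose 2.70-fold (adjusted p = 0.000582, authors' deposited table). Of 14 listed partners of osteopontin, galectin-3 and GPNMB, 4 rose and 1 fell in that table. The gene that fell was Itgb5, from 19.5 to 11.7 RPKM (1.58-fold, adjusted p = 0.00075, authors' deposited table). Ccr2, the receptor for both chemokines, was at 2.97 to 4.91 RPKM at 22 °C and at 10.4, 12.8, 2.06 and 1.00 RPKM at 24 h. Its 1.85-fold deposited difference was not called (adjusted p = 0.143, authors' deposited table). Of 9 listed chemokine receptors, 2 rose.

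Pan-macrophage markers, none of them among the 10 genes, rose for 12 of 20 listed genes in Control at 24 h, with a median log2 fold change of 0.89, and resident macrophage markers for 7 of 12, with a median of 1.06. The summed level of 19 pan-macrophage markers was 84.4 to 125 RPKM in Control at 22 °C and 292, 252, 107 and 79.7 RPKM in libraries a to d at 24 h. For 11 resident markers it was 43.4 to 68.9 RPKM and then 164, 124, 73.8 and 35.2 RPKM. For 6 of the 8 lipid-associated genes (all but Spp1 and Mmp12) it was 9.83 to 14.2 RPKM and then 136, 70.2, 16.3 and 20.8 RPKM. Libraries a and b were above c and d for 18 of 19 pan-macrophage and 10 of 11 resident markers with recovered reads.

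Markers of other cells in the pad were looked at in the same libraries. Proliferation genes rose for 12 of 17 listed genes in Control at 24 h, and 12 of them summed to 79.9, 51.1, 29.0 and 29.2 RPKM against 27.2 to 36.8 RPKM at 22 °C. Some of the 17, such as Ccna2 (0.395 RPKM at 22 °C) and Cenpf (0.101), were listed only through the 24 h group. This favours a rise, so the count is a description only. In the comparison of genotypes at 22 °C, 9 proliferation genes were listed. Fibroblast and progenitor markers rose for 4 of 13, with 9 of them at 183, 138, 112 and 94.7 RPKM against 84.6 to 133. A sum of 8 skeletal muscle genes came to 461 RPKM in library c and to 0.558 to 2.49 RPKM in the other 24 h Control libraries. The part of these markers in the result was not tested. No neutrophil marker of 3 listed and no B cell marker of 1 listed passed the test.

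**Figure D3:**
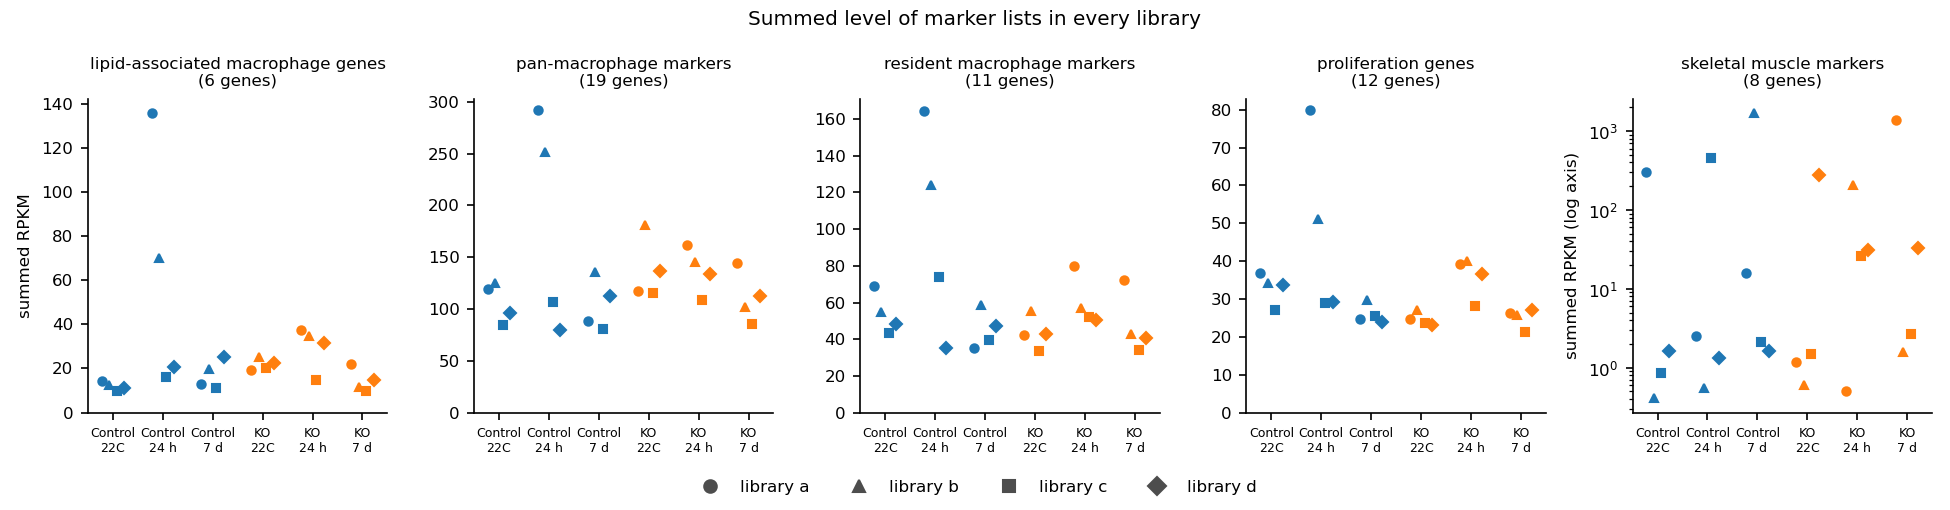
Summed RPKM of 5 gene lists in the 4 libraries of each group (Control blue, KO orange), on linear axes from 0 except for skeletal muscle genes, which are on a log axis. In Control at 24 h, libraries a and b lead in the first 4 lists, with 292 and 252 RPKM of pan-macrophage markers, and library c leads in muscle genes with 461 RPKM.

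In KO mice at 24 h, none of the 9 listed genes passed the authors' test against KO at 22 °C, where 41.9% of 12577 listed genes did. All 9 were also without a call in limma, where no member reached an unadjusted p under 0.05 and 44.4% of 11888 genes were called. In the authors' deposited table an unadjusted p under 0.05 was reached by 1 member. The nearest was Cd68, at 2.61, 4.88, 4.202 and 2.74 RPKM at 22 °C and 9.17, 6.77, 3.93 and 8.39 RPKM at 24 h, a 1.92-fold difference with an adjusted p of 0.0795 in the authors' deposited table. Of its 4 libraries at 24 h, 3 exceeded the 22 °C range. Lgals3 was at 10.2, 11.7, 9.16 and 10.8 RPKM and then at 18.0, 16.6, 4.90 and 14.7 RPKM, with library c lowest. Itgax was the 1 gene of 9 whose libraries did not overlap (39.9% of genes did not), and it lay lower at 24 h: 0.732 to 0.912 RPKM at 22 °C and 0.362 to 0.680 RPKM at 24 h. Its adjusted p in the authors' deposited table was 0.185.

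The chemokines stayed near their 22 °C values in the KO libraries. Ccl2 was at 1.52, 1.69, 0.542 and 1.024 RPKM at 22 °C and at 1.45, 1.63, 0.329 and 0.775 RPKM at 24 h. Ccl7 was at 1.019, 1.31, 0.273 and 0.590 RPKM and then at 1.04, 1.65, 0.995 and 0.782 RPKM. The groups overlapped for both genes. No KO library came near the 49.6 RPKM of Ccl2 in Control library a. Pan-macrophage markers rose for 0 of 20 and fell for 2 in the KO at 24 h, and resident macrophage markers rose for 2 of 12 and fell for 0, with a median log2 fold change of 0.45. Proliferation genes rose for 9 of 15 and lysosomal genes for 12 of 24 in the KO (15 of 25 in Control), where fibroblast and progenitor markers rose for 1 and fell for 4 of 13 and T and NK cell markers fell for 3 of 11, all by the authors' deposited table. Among the proliferation genes, Rrm2 (0.437 RPKM at 22 °C) and Ccna2 (0.374) were listed in KO only through the 24 h group, which favours a rise. Cd3e, a T cell marker that fell, was listed only through 22 °C (0.548 RPKM, then 0.153 at 24 h). Over all 12577 genes listed for the KO, 41.9% passed in either direction, so the KO counts are a description only.

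**Figure D4:**
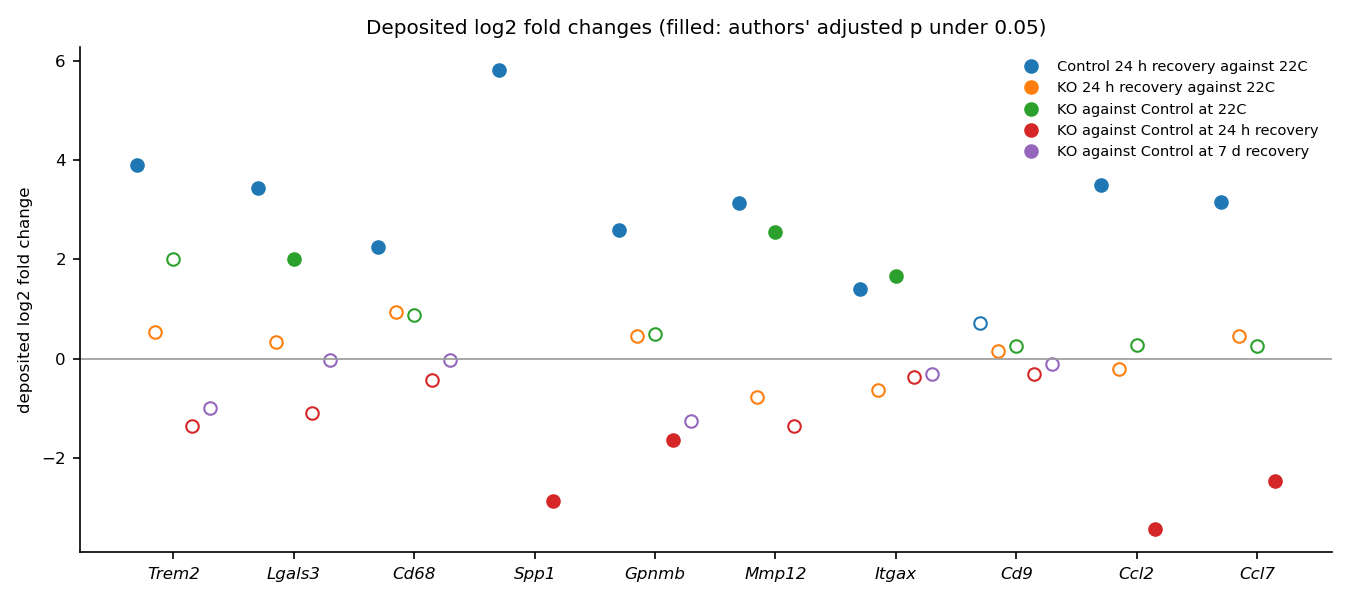
Deposited log2 fold changes of the 10 genes in the 5 comparisons of the authors, filled where the authors' adjusted p is under 0.05. In Control at 24 h 9 of 10 points are filled and above 0, for KO at 24 h against 22 °C 0 of 9 are filled, and KO against Control at 24 h has 4 filled points, all below 0.

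At 22 °C, without any cold, 3 of the genes were called higher in KO mice than in Control mice, 2 of them listed only through KO. By the authors' deposited table Lgals3, Mmp12 and Itgax were higher and none of the 9 listed was lower, where 34.3% of 12710 genes passed and 16.3% were higher. Mmp12 and Itgax, and Trem2 among the genes not called, reached the 0.5 RPKM needed for listing only in KO, so 1 of the 6 genes listed through both groups was called, Lgals3. That count is near the 16.3% of all genes that were higher. For Mmp12 and Itgax, neither the calls in either test nor the lack of overlap support a higher level in KO. Lgals3 was at 9.16 to 11.7 RPKM in KO and at 2.38 to 3.95 RPKM in Control, a 4.01-fold difference in the authors' deposited table (adjusted p = 0.00164). Mmp12 was at 0.423, 0.901, 0.545 and 0.883 RPKM in KO, above the Control maximum of 0.335 RPKM, and differed 5.84-fold in that deposited table (adjusted p = 0.0371). Itgax, at 0.809, 0.912, 0.732 and 0.879 RPKM in KO, differed 3.17-fold in the authors' deposited table (adjusted p = 0.000423). For these 3 genes the groups did not overlap, where 39.3% of genes had no overlap and 8.31% lay higher in KO without it. RPKM holds no scaling factor between libraries: the median log2 ratio of KO to Control means over all genes was -0.24 in RPKM at 22 °C and -0.18 at 24 h, against -0.01 and -0.04 for the fold changes in the authors' deposited tables. Limma called the same 3 genes and no other, and called 36.9% of all genes.

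Trem2 (4.01-fold, adjusted p = 0.114) and Cd68 (1.84-fold, adjusted p = 0.139) were above Control in the authors' deposited table at 22 °C without passing the test. Gpnmb was at 0.776 to 1.18 RPKM in KO and at 0.577 to 0.985 RPKM in Control, with the groups overlapping. Cd9, Ccl2 and Ccl7 differed by no more than 1.20-fold in the authors' deposited table. Of 20 pan-macrophage markers 6 were higher in KO at 22 °C, and of 11 listed T and NK cell markers 10 were, with a median log2 fold change of 2.02. Among the T and NK markers, Il2rb, Klrb1c, Cd3g and Lck were at 0.108 to 0.384 RPKM in Control, under the 0.5 RPKM needed for listing. They were listed only through KO, which favours this direction, so the count and the median do not support a higher level in KO. A sum over 6 of these T and NK markers came to 7.71 to 13.7 RPKM in KO and to 3.70 to 4.88 RPKM in Control. Dendritic cell markers, for which Itgax is itself a marker, were higher for 3 of 6. Of these, Clec9a (0.228 RPKM in Control) and Itgae (0.356) were likewise listed only through KO. The part of these cell markers in the result was not tested.

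Against Control at 24 h, KO mice had lower levels of 4 of the 10 genes and higher levels of none in the authors' deposited table, where 18.5% of 12657 genes passed and 7.96% were lower. This comparison shares its Control libraries with the one of Control over time. Spp1 and Mmp12 were listed only through their Control mean, and 3 of the 8 genes listed through both groups were lower. In the authors' deposited table Spp1 was 7.31-fold lower (adjusted p = 0.00135), Ccl2 10.9-fold lower (adjusted p = 0.00315), Gpnmb 3.10-fold lower (adjusted p = 0.0107) and Ccl7 5.49-fold lower (adjusted p = 0.0161). None of the 10 genes had groups without overlap, while 24.1% of all genes did. Spp1 came closest, at 0.353, 0.793, 0.240 and 0.471 RPKM in KO against a Control minimum of 0.709 RPKM. Gpnmb was at 1.60, 1.21, 0.767 and 1.77 RPKM in KO, within the Control range of 0.773 to 9.64 RPKM but for the lowest library.

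Limma called 1 of the 10, Spp1, at a log2 fold change of -2.02 ± 0.59 (SE, adjusted p = 0.0264), with 19.5% of genes called. Spp1 was listed only through its Control mean, so this call does not support a lower level in KO. Without Control libraries a and b, Spp1 no longer passed, at -0.69. The log2 differences of the other 9 genes, all below 0 in the authors' deposited table, then lay above 0, from 0.059 for Ccl7 to 1.18 for Cd68. Those libraries were left out because they were the highest for these genes, so this direction is set by that choice and shows nothing of the KO. Of 20 pan-macrophage markers, 1 was lower and none higher in KO at 24 h in the authors' deposited table, and of 12 resident markers 1 was lower. Fibroblast and progenitor markers were lower for 5 of 13, and T and NK cell markers were higher for 4 of 7. Those 4, Il2rb, Cd3g, Lck and Cd2, were under the 0.5 RPKM needed for listing in Control at 24 h. They were listed only through KO, which favours this direction, so the count does not support a higher level in KO. The part of these cell markers in the result was not tested.

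The change over 24 h itself was compared between genotypes. From the deposited fold changes, with errors rebuilt from the deposited p-values, the KO change was smaller or opposite for 5 of 9 genes at an adjusted p under 0.05: Lgals3, Itgax, Gpnmb, Mmp12 and Trem2. The background was 17.6% of 10923 genes, 6.96% in that direction. Itgax, Mmp12 and Trem2 were listed in Control only through the 24 h group where they were high, which favours this direction. Their calls, here or in limma below, do not support a smaller change in KO. The log2 difference, KO minus Control, was -3.10 ± 0.79 for Lgals3 (SE, adjusted p = 0.00111), -2.03 ± 0.57 for Itgax (adjusted p = 0.00367) and -3.37 ± 1.26 for Trem2 (adjusted p = 0.0441). Limma called 2 of these, Itgax (-1.65 ± 0.44, adjusted p = 0.0115) and Lgals3 (-2.53 ± 0.83, adjusted p = 0.0384), with 16.9% of genes called. Without Control libraries a and b it called 0 of 9. Those libraries were left out because they were the highest, so this shows only that the calls rest on them. The chemokines did not pass in either test (Ccl2 -3.71 ± 1.68, adjusted p = 0.115, and Ccl7 -2.72 ± 1.28, adjusted p = 0.132, from the rebuilt errors). With the same difference taken from the tables of KO against Control, Ccl2 did pass (-3.71 ± 1.41, adjusted p = 0.0472).

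After 7 d no difference between the genotypes was called for the 6 genes still listed. None passed the authors' test between KO and Control in the authors' deposited table, where 15.3% of 12467 genes did, and 1 had an unadjusted p under 0.05. Limma called none of the 6 either, with 19.4% of genes called and 1 member at an unadjusted p under 0.05. Gpnmb was at 0.924, 1.92, 1.00 and 2.50 RPKM in Control and at 1.27, 0.320, 0.326 and 0.555 RPKM in KO, with overlap, and an adjusted p of 0.0812 in the authors' deposited table. Trem2 was at 0.278, 0.127, 0.302 and 1.32 RPKM in Control and at 0.420, 0.0885, 0 and 0.368 RPKM in KO. Library d of Control at 7 d was the highest for 5 of the 6 genes.

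No deposited table compares 7 d with earlier times, so the recovered reads were used. Lgals3 in Control was at 2.67, 8.80, 2.09 and 8.89 RPKM at 7 d, its mean 5.93-fold below that at 24 h and 1.82-fold above that at 22 °C, and limma called neither difference (adjusted p = 0.0539, with 3.78% of genes called, and 0.464). Cd68 in Control was at 3.13, 2.45, 2.91 and 4.15 RPKM at 7 d, and the change from 24 h was not called (adjusted p = 0.148). Itgax was the only gene of the 6 that limma called against 22 °C, in both genotypes and in opposite directions. It was higher in Control at 7 d, at 0.495, 0.759, 0.472 and 0.696 RPKM (log2 fold change 0.95 ± 0.31, adjusted p = 0.0405, with 16.9% of genes called), without overlap with 22 °C (18.8% of genes). In KO it was lower, at 0.669, 0.252, 0.523 and 0.384 RPKM (log2 fold change -0.91 ± 0.31, adjusted p = 0.0229, with 42.8% of genes called), also without overlap (38.9% of genes). Both calls lay near the threshold. Itgax was under 0.5 RPKM in Control at 22 °C (mean 0.311) and in KO at 7 d (mean 0.457). It was listed there only through other groups where it was higher. Its calls and the genotype difference below are therefore a description only. With single libraries of the groups compared left out, the Control call was lost in 7 of 8 fits (all but the one without 7 d library c; limma adjusted p from 0.0473 to 0.1095). The KO call was lost in 3 of 8, without 22 °C library d or 7 d library b or d (limma adjusted p from 0.0106 to 0.104), and the direction held in each fit. The genotype effect on Itgax at 7 d was below that at 22 °C by 1.98 ± 0.59 log2 units (rebuilt errors, adjusted p = 0.0083, with 14.8% of genes called).

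Across the 6 groups the mean of Lgals3 was highest in Control at 24 h (33.3 RPKM), followed by KO at 24 h (13.5), KO at 22 °C (10.5), Control at 7 d (5.61), KO at 7 d (5.25) and Control at 22 °C (3.08), all authors' means from the authors' deposited tables. Only KO at 22 °C and Control at 7 d, as neighbours in this order, had libraries that did not overlap. Itgax had another order, with KO at 22 °C first (0.833 RPKM), then Control at 24 h (0.794), Control at 7 d (0.606), KO at 24 h (0.547), KO at 7 d (0.457) and Control at 22 °C (0.311). All of its neighbouring groups overlapped.

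The genes with a pattern most like the mean profile of the 6 genes listed everywhere were Igfbp7 (Pearson r 0.997 over the 6 group means), Tns3 (0.989), Rgs10 (0.988), Pld4 (0.985), Ctss (0.985), Ccl9 (0.980), Fgd2 (0.980) and Lilrb4 (0.978). They were taken from 11310 candidates, of which 28 had r above 0.95, and groups share their libraries with the members, so no p is given. Ctss, a lysosomal protease of antigen-presenting cells, was at 62.5, 48.4, 11.2 and 9.69 RPKM in Control libraries a to d at 24 h. Lilrb4, an inhibitory receptor of myeloid cells, was at 14.1, 8.29, 2.43 and 3.11 RPKM there. Both were high in libraries a and b and low in c and d, like the 10 genes.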

How the data were processed

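RNA was taken from interscapular brown fat, depleted of ribosomal RNA with Ribo-Zero and made into TruSeq v2 libraries, per the labels' protocols. Per the submitters' processing notes, STAR, featureCounts, edgeR and mouse build mm9 were used, with no versions or settings given in the sources used here. Per the file headers, the authors deposited for each of 5 comparisons the means of both groups, a log2 fold change, p-values raw and adjusted, and a log2 CPM averaged over libraries. The headers give no unit for the means. They were read as RPKM deposited by the authors, since whole reads came out of them. The authors' adjusted p-value (edgeR, Benjamini-Hochberg) under 0.05 is the main test.

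Each mean, printed to 15 digits, was solved for the whole reads of its 4 libraries, and kept when 1 solution existed. On data simulated around means that already had 1 solution, 5958 of 6000 genes were recovered, 42 had several solutions and 0 were wrong. Means without a single solution were not simulated. These reads were tested with limma 3.58.1 in R 4.3.3 (log2 CPM, prior count 2, library scaling factors, a trended spread over all 6 groups), a choice made after the files were seen. In a simulation of Control at 24 h against 22 °C on 11192 genes, limma recovered 69 of 107 genes changed by 1 log2 unit and 89 of 93 changed by 2, and called 10 unchanged ones. The simulation gave every gene the same spread between libraries. These shares therefore need not hold for genes as uneven as Lgals3, at 5.26 to 83.1 RPKM in Control at 24 h. Its fold changes differ in size from the deposited ones, in Control at 24 h lower for all 10 genes; the cause was not tested. Differences between effects used the deposited log2 fold changes, each error rebuilt from its p (up to 0.9), with a normal p, which is approximate; in a simulation on 10923 genes, 132 of 200 changed genes were recovered and 9 others called.

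The 10 genes, the 23 gene lists and the comparisons were chosen with earlier results of these data known. Named context genes are up to 4 per list with the smallest deposited p in a comparison over time; Tyrobp was named for its role. The 8 genes of like pattern are those with the highest Pearson r. Python 3.11.15 was used.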

Additional observations from a re-analysis of the deposited data

Results flagged for a closer look

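Of 51 sets of 4 libraries (each gene in each group where it was listed), 4 had 1 library far from the other 3 by Dixon's criterion; chance gives about 1 in 20. In Control at 24 h of recovery, library a was far above the others for Ccl2 at 49.6 RPKM and for Ccl7 at 25.0 RPKM. Trem2 in Control at 7 d had 1 library at 1.32 RPKM, from 7 reads. Spp1 in Control at 22 °C had 1 library at 0 RPKM, where the other 3 had 1 read each.

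The change over 24 h differed between the genotypes (KO minus Control, log2, errors rebuilt from the deposited p-values) by -3.37 for Trem2, -3.10 for Lgals3, -2.13 for Gpnmb, -3.91 for Mmp12 and -2.03 for Itgax, at adjusted p-values of 0.0441, 0.00111, 0.0275, 0.0343 and 0.00367. Trem2, Mmp12 and Itgax were listed in Control only through the 24 h group where they were high, so their differences do not support a smaller change in KO. The effect of the knockout on Itgax changed between 22 °C and 7 d by -1.98 log2 units (adjusted p = 0.0083). Itgax was under the 0.5 RPKM needed for listing in Control at 22 °C and in KO at 7 d, so this is a description only.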

How the results depend on the processing

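The count of genes that rose in Control at 24 h (9 of 10) ran from 4 to 9 when each library in turn was left out in limma. It was 1 without Control libraries a and b at 24 h, which were the highest, so a lower count is favoured by that choice. The count for KO against Control at 24 h (4 of 10) was 2 at an adjusted p under 0.01, 1 with limma, with a prior count of 0.5, or without scaling factors, and 1 without Control libraries a and b, there in the other direction, which the choice of those libraries sets. It ran from 0 to 3 with single libraries left out. The genes called between genotypes at 22 °C numbered 2 to 3 in those fits, at 7 d 0 to 1, and in KO at 24 h 0. For the genotype difference of the 24 h change (5 of 9) they numbered 1 to 5, with 2 in limma on all libraries or with a prior count of 0.5, 1 without scaling factors and 0 without Control libraries a and b, a loss that the choice of those libraries favours. Without Control libraries a and b, the log2 difference of Ccl2 in Control at 24 h turned to -0.38, and KO against Control at 24 h turned to 0.39 for Ccl2, 0.19 for Gpnmb, 1.18 for Cd68, 0.059 for Ccl7, 0.76 for Lgals3, 0.89 for Trem2, 0.38 for Itgax, 0.88 for Mmp12 and 0.27 for Cd9. With single libraries left out, differences that were not called also crossed 0. For KO against Control at 24 h they ran from -1.17 to 0.067 for Lgals3, -0.47 to 0.42 for Cd68, -0.36 to 0.24 for Itgax, -1.29 to 0.26 for Mmp12 and -0.48 to 0.077 for Cd9. For KO at 24 h they ran from -0.48 to 0.098 for Ccl2 and -0.011 to 0.25 for Cd9, between genotypes at 22 °C from -0.086 to 0.48 for Ccl7 and -0.012 to 0.48 for Ccl2, and at 7 d from -0.27 to 0.39 for Lgals3, -0.24 to 0.22 for Cd68 and -0.29 to 0.079 for Cd9. Lgals3 at 7 d was also above 0 in limma (0.085), without scaling factors (0.013) and with a prior count of 0.5 (0.092). The causes of these changes were not tested beyond the libraries left out. The call of Itgax at 7 d against 22 °C was lost in 7 of 8 such fits in Control and in 3 of 8 in KO, and in Control also without scaling factors. No paired analysis was possible because the recovered libraries cannot be tied to the labels' replicate numbers. Genes with few reads, such as Trem2 and Spp1 at 22 °C, are limited by depth.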
